A study of Sus scrofa with 9 samples.

Results

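The genes described here are 8 markers of the epithelium that lines bile ducts, KRT7, KRT19, EPCAM, SOX9, CFTR, PKHD1, SPP1 and ANXA4, together with VIL1, which encodes villin. They were taken by symbol from a table of read counts, and all 9 were found among its 29837 gene symbols. All 9 also passed the filter on low counts that left 14100 genes for testing. The counts come from livers of female pigs aged 2 years, of which 4 were MIDY and 5 were wild type (WT). The MIDY animals carry an insulin transgene with the C94Y mutation and model the diabetes of youth that mutant INS genes induce. The WT animals carry no transgene per the labels. Diabetic animals were treated with short-acting and long-acting insulin, so genotype, diabetes and insulin treatment cannot be told apart in this comparison. The sources used here give neither the promoter of the transgene nor the number of founder lines.

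Bile ducts run in the portal tracts of the liver, beside the portal vein and the hepatic artery. Their lining cells, the cholangiocytes, receive bile from the canaliculi between hepatocytes and add fluid and bicarbonate to it. They carry microvilli and a primary cilium on the side that faces the bile. Cholangiocytes are a small part of the liver's cells, and hepatocytes share some of their genes: KRT8 and KRT18 are keratins of both cell types, and villin lies in the microvilli of ducts and of bile canaliculi. SPP1 is also made by macrophages and other cells. In bulk tissue, fewer cells of a type and less RNA per cell cannot be told apart.

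The libraries held 14115415 to 19533463 counts. Levels are given as CPM, the counts of a gene per 1000000 counts of its library, after scaling of the libraries with TMM factors, which lay between 0.900 and 1.10. They are compared between animals and not between genes, because transcript lengths were not used here. The tissue label was checked with 11 hepatocyte markers such as ALB and APOA1, all of which were measured and which summed to 121054 to 176304 CPM in WT and 142903 to 173903 CPM in MIDY livers. Each library is a different pig, but the sources used here give neither litter nor batch.

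VIL1 was the only one of the 9 genes called different between MIDY and WT liver, and it was lower in MIDY. A gene was called when the Benjamini-Hochberg adjusted p of edgeR's quasi-likelihood test, taken over all genes tested, was below 0.05. The 1 member called lower stands beside 0.355% of all tested genes called lower, and the 0 members called higher beside 0.816% called higher. At an unadjusted p below 0.05, 4 of the 9 members (VIL1, PKHD1, SPP1 and EPCAM) stood beside 16.1% of all tested genes. The same 16.1% is the background for the counts at an unadjusted p below 0.05 in the other lists. Fitted differences lay below 0 for 8 of the 9 members, against 50.7% of tested genes. The median log2 fold change (MIDY minus WT) was -0.51 over the members and -0.00465 over all tested genes. VIL1 was known from earlier results of these data to be lower, so its call is no independent support. The member counts and the median include VIL1 and carry no test. DESeq2 and limma voom each called 2 members lower, VIL1 and PKHD1. The number of members called lower was 0 without MIDY replicate 1, 2 or 3 or without WT replicate 2, 4 or 5, and it was 2 without MIDY replicate 4 or WT replicate 1. Calls over the whole table moved as well. All genes called lower numbered 50 in the main fit, 284 with DESeq2, 81 with limma voom and 4 to 107 without 1 library.

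**Figure D1:**
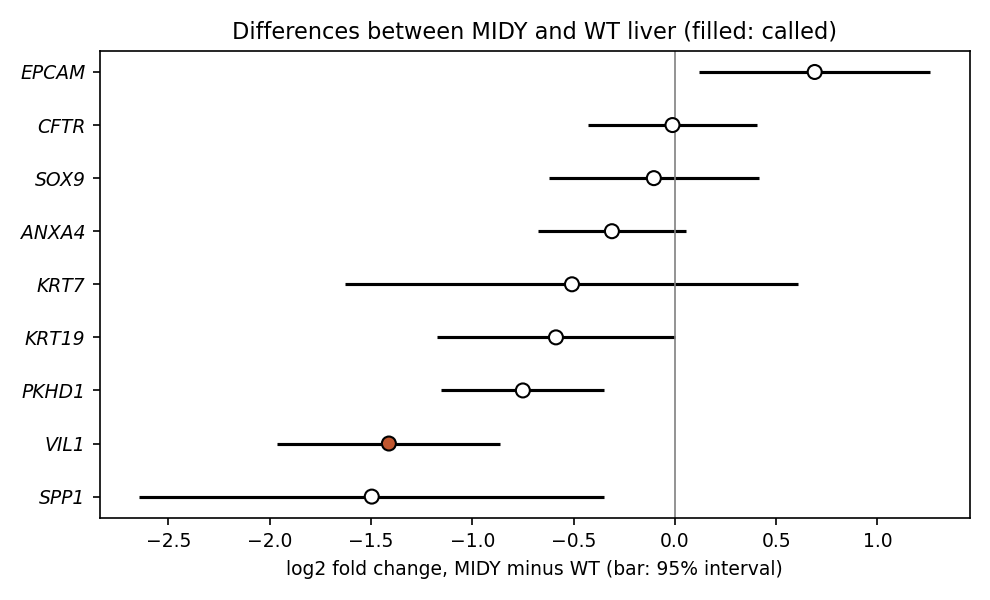
Log2 fold change (MIDY minus WT, x axis) of each of the 9 genes, with its 95% interval from edgeR as a bar; the filled point is the gene called at an adjusted p below 0.05. VIL1 at -1.41 is the filled point, SPP1 at -1.5 has the widest interval among the genes with a fold change beyond -1, and EPCAM at 0.69 lies on the other side of 0.

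Villin bundles and severs actin filaments in the core of microvilli. VIL1 (chromosome 15, 120463470 to 120494772, on Sscrofa11.1) stood at 5.08, 10.3, 6.0, 8.89 and 8.47 CPM in WT replicates 1 to 5 and at 2.18, 3.05, 2.32 and 4.09 CPM in MIDY replicates 1 to 4. The highest MIDY liver lay below the lowest WT liver, and the groups were also apart under RLE and total-count scaling. Levels of 6.35% of tested genes were apart between the groups, and of 2.63% in this direction. The mean was 7.75 ± 2.15 CPM in WT (SD, n = 5) and 2.91 ± 0.87 CPM in MIDY (SD, n = 4). This was a log2 fold change of -1.41 ± 0.25 (SE; edgeR adjusted p = 0.0234) with a 95% interval from -1.96 to -0.86, which corresponds to 0.257 to 0.551 of the WT level. Raw counts were 73 to 206 in WT and 35 to 78 in MIDY, so counting alone gives a coefficient of variation of 8.72% in WT and 14.1% in MIDY, against observed ones of 27.7% and 30.0%. The adjusted p rose to between 0.0510 and 0.0714 when MIDY replicate 1, 2 or 3 or WT replicate 2, 4 or 5 was left out, while the log2 fold change stayed between -1.63 and -1.29 over the 9 fits that left out 1 library. The gene model of USP37, a deubiquitinase, overlaps that of VIL1 by 2221 bases at one end, and its log2 fold change was 0.04 ± 0.13 (SE; edgeR adjusted p = 0.915).

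**Figure D2:**
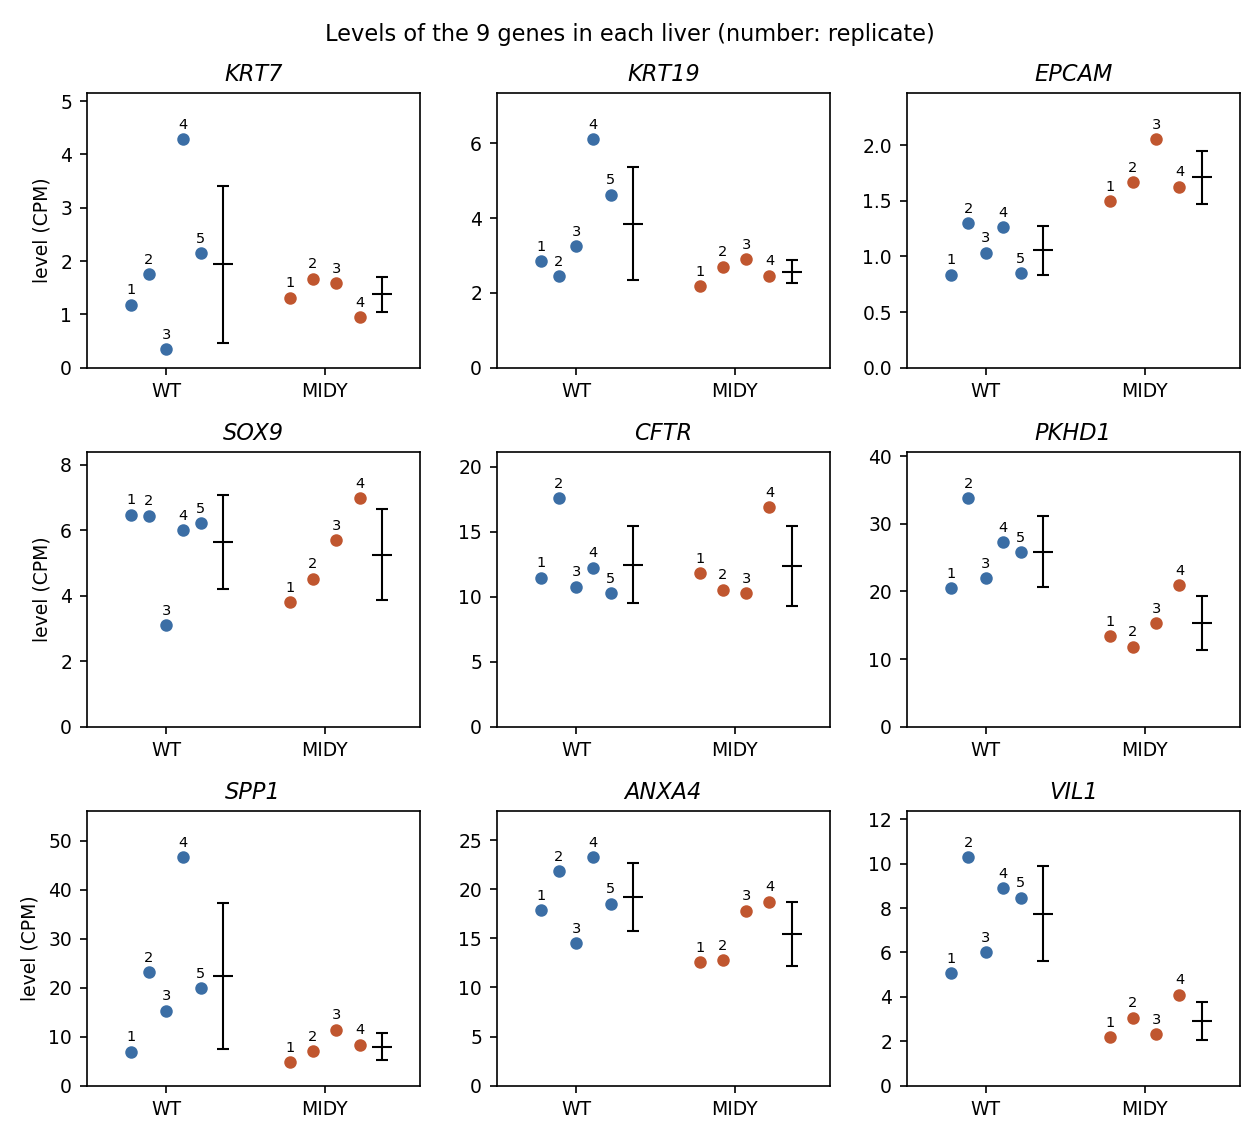
Level in CPM (y axis, each panel from 0) of the 9 genes in each WT (n = 5) and MIDY (n = 4) liver; the number beside a point is the replicate and the bar beside each group gives mean ± SD. The groups are apart for VIL1 (MIDY at most 4.09 CPM, WT at least 5.08) and for EPCAM (MIDY at least 1.5 CPM, WT at most 1.30), and overlap for the other 7 genes.

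VIL1 was also set against each biliary marker within a library, as the ratio of raw counts, which needs no scaling between libraries. Against CFTR the ratio was 0.442, 0.585, 0.558, 0.727 and 0.824 in the WT livers and 0.185, 0.289, 0.226 and 0.242 in the MIDY livers, so every MIDY ratio was below every WT ratio. The groups were apart in the same way against SOX9 (WT 0.785 to 1.93, MIDY 0.407 to 0.677), ANXA4 (WT 0.284 to 0.471, MIDY 0.130 to 0.239) and EPCAM (WT 5.80 to 10, MIDY 1.13 to 2.52). They overlapped against KRT7, KRT19, PKHD1 and SPP1. Against PKHD1 the ratio was 0.248 to 0.328 in WT and 0.152 to 0.259 in MIDY, where MIDY replicate 2 passed the lowest WT liver. Against SPP1 the medians were 0.426 in WT and 0.443 in MIDY. VIL1 is the numerator of all 8 ratios and was known to be lower, so the ratios carry no test.

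**Figure D3:**
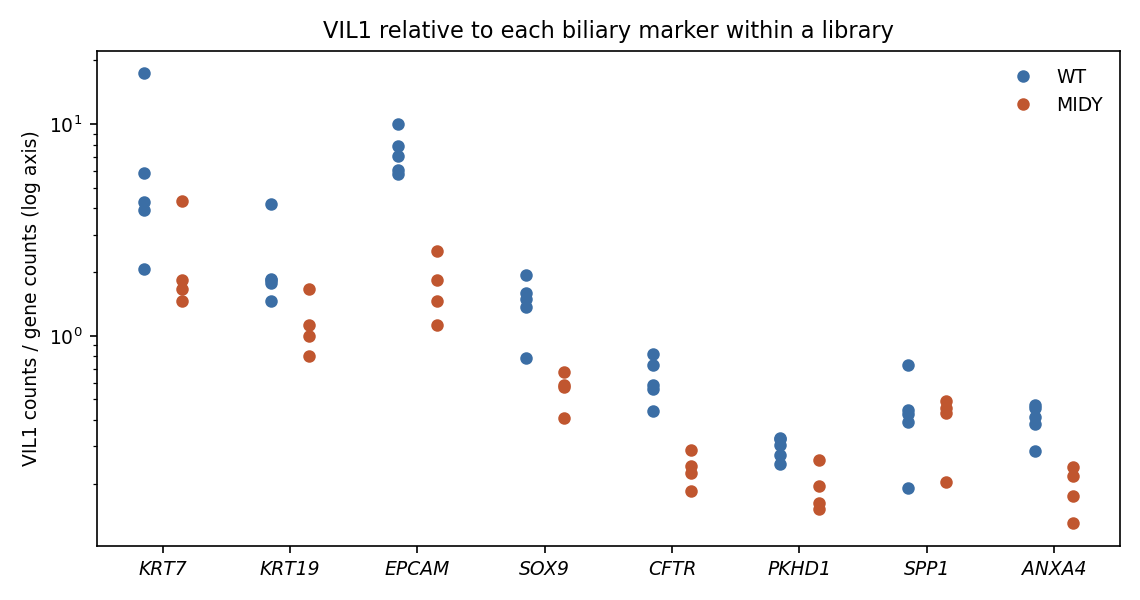
VIL1 counts divided by the counts of each biliary marker in the same library (log axis), for WT and MIDY livers. The groups do not overlap for EPCAM, SOX9, CFTR and ANXA4 and overlap for KRT7, KRT19, PKHD1 and SPP1; heights are not compared between genes.

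Other genes of the villin and gelsolin family, which share the actin-binding gelsolin fold, were not called: edgeR, DESeq2 and limma voom each called 0 of 6 tested, and 3 had an unadjusted p below 0.05 in edgeR. CAPG, an actin-capping protein, was at 2.25 ± 0.33 CPM in WT livers and 1.41 ± 0.24 CPM in MIDY livers (± SD over 5 and 4 livers; adjusted p = 0.185 by edgeR). AVIL, advillin, was at 43.8 ± 3.19 and 52.9 ± 7.09 CPM (± SD over 5 and 4 livers; adjusted p = 0.254 by edgeR). The list's median log2 fold change was -0.19. In the list of microvillus genes, which holds ezrin, espin, plastin and adhesion genes of the brush border, edgeR called 0 of 14 tested genes, with 2 at an unadjusted p below 0.05. DESeq2 called 1 higher and 1 lower there, and limma voom 1 higher. BAIAP2L1, which couples the membrane to actin, was at 15.2 ± 1.91 CPM in WT livers and 22 ± 3.40 CPM in MIDY livers (± SD over 5 and 4 livers; adjusted p = 0.0807 by edgeR). Among the fits without 1 library, BAIAP2L1 was called only without MIDY replicate 4 (adjusted p = 0.0333, up to 0.217 in the others). MSN, moesin, which links membrane proteins to actin, was at 47.2 ± 3.60 and 37.7 ± 1.81 CPM (± SD over 5 and 4 livers; adjusted p = 0.121 by edgeR). The median of the microvillus list was -0.11.

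KRT7 and KRT19 form the intermediate filaments that set duct cells apart from hepatocytes in stained liver sections. KRT19 (chromosome 12, 21115453 to 21119115) stood at 2.85, 2.45, 3.24, 6.12 and 4.63 CPM in WT replicates 1 to 5 and at 2.18, 2.71, 2.90 and 2.46 CPM in MIDY replicates 1 to 4. WT replicates 3, 4 and 5 lay above all MIDY livers, and WT replicates 1 and 2 lay among them. This gave a log2 fold change of -0.59 ± 0.27 (SE; edgeR adjusted p = 0.311) with a 95% interval from -1.18 to 0.00. Without WT replicate 4 it was -0.36. The spread differed between the groups, with a coefficient of variation of 39.0% in WT and 12.0% in MIDY, where counting alone gives 12.6% and 15.1%.

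KRT7 (chromosome 5, 17553192 to 17570582) was measured at 17, 35, 5, 68 and 38 raw counts in the WT livers and 21, 24, 30 and 18 in the MIDY livers. This was 0.345 to 4.29 CPM in WT, a 12.4-fold range between WT replicates 3 and 4, and 0.944 to 1.67 CPM in MIDY, inside the WT range. KRT7 had a log2 fold change of -0.51 ± 0.51 (SE; adjusted p = 0.675 by edgeR), and without WT replicate 4 it was -0.01. Its 95% interval, from -1.63 to 0.61, holds a fall to 0.324 of the WT level as well as a rise to 1.53 of it. The RefSeq gene table lists KRT7 on this assembly as lncRNA, and whether these counts follow the coding transcript was not tested.

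Their partners KRT8 and KRT18, which hepatocytes also make, were the only tested genes among 6 other epithelial keratins found in the table. KRT8 stood at 140, 187, 197, 166 and 152 CPM in the WT livers and at 139, 89.3, 96.5 and 102 CPM in the MIDY livers. The groups were apart, as for 2.63% of tested genes in this direction, but MIDY replicate 1 at 139.0 CPM lay next to WT replicate 1 at 139.6. KRT8 had a log2 fold change of -0.66 ± 0.15 (SE; edgeR adjusted p = 0.0528), just short of a call. DESeq2 and limma voom called KRT8. Of the 9 fits without 1 library, only those without MIDY replicate 1 (adjusted p = 0.0209) or WT replicate 1 (0.0380) called it. Over the 18 alternatives KRT8 was called in 7, and its adjusted p reached 0.243. KRT18 was at 36.2 ± 10.3 CPM in WT livers and 24.9 ± 3.43 CPM in MIDY livers (± SD over 5 and 4 livers; adjusted p = 0.208 by edgeR). KRT5 and KRT15, keratins of stratified epithelium, had 0 counts in all libraries.

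EPCAM, a cell adhesion protein of epithelia that adult hepatocytes lack, was the only member with a fitted difference above 0. EPCAM (chromosome 3, 93169800 to 93185221) stood at 0.834, 1.30, 1.04, 1.26 and 0.847 CPM in WT replicates 1 to 5 and at 1.5, 1.67, 2.05 and 1.63 CPM in MIDY replicates 1 to 4. Every MIDY liver lay above every WT liver, under TMM, RLE and total-count scaling alike, as did 3.72% of tested genes under TMM. The log2 fold change was 0.69 ± 0.26 (SE; edgeR adjusted p = 0.224), with a 95% interval from 0.12 to 1.26. Counts were only 12 to 26 in WT and 24 to 39 in MIDY. Counting alone gives a coefficient of variation of 23.8% in WT and 18.4% in MIDY, no smaller than the observed 20.9% and 14.0%. EPCAM was not called in any of the 18 alternative fits (adjusted p from 0.137 to 0.520).

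SOX9 is the transcription factor that marks duct cells from their first appearance in the embryo. SOX9 (chromosome 12, 8642154 to 8647315) stood at 6.47, 6.45, 3.11, 5.99 and 6.21 CPM in the WT livers and at 3.81, 4.51, 5.69 and 6.97 CPM in the MIDY livers. The groups overlapped over nearly their whole range, with the lowest level in WT replicate 3 and the highest in MIDY replicate 4. The fitted difference was -0.10 ± 0.24 as log2 (SE; adjusted p = 0.881 by edgeR), and the 95% interval runs from -0.62 to 0.41. Among 17 tested genes of Notch and YAP signalling and of biliary specification, edgeR and limma voom called 0 and DESeq2 called 1 lower. Of these genes 5 had an unadjusted p below 0.05, all with a fold change below 0. They included NOTCH2, the receptor that receives the JAG1 signal for duct formation, at 133 ± 11.6 CPM in WT livers and 103 ± 6.94 CPM in MIDY livers (± SD over 5 and 4 livers; adjusted p = 0.0922 by edgeR). WWTR1, the YAP partner TAZ, was at 47.5 ± 5.58 and 37.1 ± 5.72 CPM (± SD over 5 and 4 livers; adjusted p = 0.202 by edgeR). The list's median was -0.23.

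CFTR is the chloride channel that drives fluid and bicarbonate secretion into bile. CFTR (chromosome 18, 28627717 to 28818209) stood at 11.5, 17.6, 10.8, 12.2 and 10.3 CPM in the WT livers and at 11.8, 10.5, 10.3 and 16.9 CPM in the MIDY livers. In each group 1 liver, WT replicate 2 and MIDY replicate 4, lay well above the rest. The means were 12.5 ± 2.95 CPM in WT (SD, n = 5) and 12.4 ± 3.08 CPM in MIDY (SD, n = 4). The log2 fold change of -0.01 ± 0.19 (SE; edgeR adjusted p = 0.986) has a 95% interval from -0.43 to 0.41 and turned to 0.02 under total-count scaling. Among 11 tested genes of bile duct secretion, 1 was called higher and 0 lower, beside 0.816% and 0.355% of all tested genes, and the median was -0.19. The called gene was SLC4A4, a sodium bicarbonate cotransporter that is also found outside the ducts, which rose from 127 ± 17.5 to 229 ± 23.3 CPM (± SD over 5 and 4 livers), a log2 fold change of 0.85 ± 0.12 (SE; adjusted p = 0.0109 by edgeR). Its levels were 98.2 to 144 CPM in WT and 195 to 246 CPM in MIDY, with no overlap, as for 3.72% of tested genes in this direction. SLC4A4 was called in all 9 fits that left out 1 library. It was not called when WT replicate 4 and MIDY replicate 3 were both left out (adjusted p = 0.0520).

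PKHD1 encodes fibrocystin, a membrane protein of the primary cilium whose loss causes cysts of bile ducts and kidney tubules. PKHD1 (chromosome 7, 45447354 to 45925141) stood at 20.4, 33.8, 21.9, 27.3 and 25.8 CPM in WT replicates 1 to 5 and at 13.4, 11.8, 15.3 and 20.9 CPM in MIDY replicates 1 to 4. The groups met at 1 point, where MIDY replicate 4 passed WT replicate 1. The log2 fold change was -0.75 ± 0.19 (SE), with a 95% interval from -1.15 to -0.35, and the edgeR adjusted p of 0.0758 was short of a call. It was 0.0254 without MIDY replicate 4 and 0.0493 without WT replicate 1, while DESeq2 gave 0.0100 and limma voom 0.0473. These were the only 4 of the 18 alternatives that called PKHD1. Its adjusted p reached 0.192 in the fits without 1 library and 0.286 over all alternatives. The PKHD1 counts of 170 to 676 per library leave a counting error of 4.79% in WT and 6.10% in MIDY. A pseudogene model that overlaps PKHD1 had 49 counts over all libraries. Among 14 tested genes of polycystic disease and the cilium, edgeR, DESeq2 and limma voom called 0, and 2 had an unadjusted p below 0.05. These were TMEM67, of the ciliary transition zone, at 6.62 ± 1.17 CPM in WT livers and 8.89 ± 0.76 CPM in MIDY livers (± SD over 5 and 4 livers; adjusted p = 0.207 by edgeR), and DZIP1L at 2.96 ± 1.07 and 1.77 ± 0.45 CPM (± SD over 5 and 4 livers; adjusted p = 0.275 by edgeR). The list's median was 0.07.

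SPP1 encodes osteopontin, a secreted protein that binds integrins and CD44. SPP1 (chromosome 8, 131077786 to 131085334) stood at 6.95, 23.2, 15.3, 46.7 and 19.9 CPM in WT replicates 1 to 5 and at 4.80, 7.08, 11.4 and 8.34 CPM in MIDY replicates 1 to 4. WT replicates 2 to 5 lay above every MIDY liver, and WT replicate 1 lay among them. The log2 fold change was -1.5 ± 0.51 (SE), a size close to that of VIL1, but the edgeR adjusted p was 0.204 and the 95% interval ran from -2.64 to -0.35. The coefficient of variation was 66.4% in WT, where counting alone gives 5.16%. Without WT replicate 4 the log2 fold change was -1.05, and without WT replicate 1 it was -1.73 (edgeR adjusted p = 0.0613). SPP1 made up 10.2 to 36.7% of the summed counts of the 8 biliary markers in WT and 9.36 to 17.1% in MIDY.

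Among 9 receptors of osteopontin, edgeR and limma voom called 0 and DESeq2 called 2 lower, while 5 had an unadjusted p below 0.05 (2 with a fold change above 0 and 3 below). ITGB3 was at 24.2 ± 8.04 CPM in WT livers and 13.2 ± 1.40 CPM in MIDY livers (± SD over 5 and 4 livers; adjusted p = 0.0851 by edgeR), and ITGA8 at 4.88 ± 2.69 and 1.71 ± 0.66 CPM (± SD over 5 and 4 livers; adjusted p = 0.111 by edgeR). Among the fits without 1 library, both integrin genes were called only without WT replicate 1 (edgeR adjusted p = 0.0250 and 0.0391). In the other such fits the adjusted p reached 0.217 for ITGB3 and 0.247 for ITGA8. Macrophage markers, a second possible source of SPP1, summed to 752 to 1061 CPM in WT and 647 to 882 CPM in MIDY, and edgeR and limma voom called 0 of 10 tested, while DESeq2 called 1 higher. Of the 10, 8 had a fold change below 0, beside 50.7% of all tested genes, with a median of -0.28. Of the 5 at an unadjusted p below 0.05, 4 lay below 0 and 1 above. MARCO, a scavenger receptor of resident macrophages, was at 10.1 ± 4.78 CPM in WT livers and 19.8 ± 2.76 CPM in MIDY livers (± SD over 5 and 4 livers; adjusted p = 0.138 by edgeR). Among the fits without 1 library, MARCO was called only without WT replicate 1 (adjusted p = 0.0304, up to 0.304 in the others). C1QC, a complement gene of macrophages, was at 188 ± 33.3 and 143 ± 15.8 CPM (± SD over 5 and 4 livers; adjusted p = 0.179 by edgeR). The part of macrophages in the SPP1 values was not tested.

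ANXA4 is a calcium-dependent membrane-binding protein of secretory epithelia. ANXA4 (chromosome 3, 72623311 to 72654591) stood at 17.9, 21.8, 14.5, 23.3 and 18.5 CPM in the WT livers and at 12.5, 12.8, 17.8 and 18.7 CPM in the MIDY livers. MIDY replicates 1 and 2 lay below all WT livers, and MIDY replicates 3 and 4 lay among them. ANXA4 had a log2 fold change of -0.31 ± 0.17 (SE; edgeR adjusted p = 0.393), with a 95% interval from -0.68 to 0.05. Of 9 other tested annexins edgeR and limma voom called 0 and DESeq2 called 1 lower, with 2 at an unadjusted p below 0.05 and a median of -0.14. ANXA13, an annexin of epithelia, was at 14.5 ± 5.09 CPM in WT livers and 7.76 ± 2.59 CPM in MIDY livers (± SD over 5 and 4 livers; adjusted p = 0.168 by edgeR). Among the fits without 1 library, ANXA13 was called only without WT replicate 1 (adjusted p = 0.0447, up to 0.337 in the others). ANXA11 was at 26.0 ± 3.51 and 20.6 ± 0.89 CPM (± SD over 5 and 4 livers; adjusted p = 0.176 by edgeR).

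The members did not vary between animals as 1 block. WT replicate 4 had the highest level of KRT7, KRT19, SPP1 and ANXA4, and WT replicate 2 that of CFTR, PKHD1 and VIL1, while EPCAM was highest in MIDY replicate 3 and SOX9 in MIDY replicate 4. The lowest level of KRT19, SPP1, ANXA4 and VIL1 was found in MIDY replicate 1. WT replicate 3 had the lowest KRT7 and SOX9 and lay below the WT mean for 9 of the 9 genes. Summed over the 8 biliary markers, the level was 68.1, 108, 70.3, 127 and 88.3 CPM in WT replicates 1 to 5 and 51.4, 52.7, 67.0 and 76.9 CPM in MIDY replicates 1 to 4. WT replicates 2, 4 and 5 lay above all MIDY livers, and WT replicates 1 and 3 lay below MIDY replicate 4. With SPP1 left out of the sum, only WT replicates 2 (85.1 CPM) and 4 (80.4 CPM) lay above all MIDY livers. WT replicate 5 was then at 68.46 CPM and MIDY replicate 4 at 68.54 CPM.

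A gel-forming mucin gene moved with some of these values. MUC5B, made by mucous glands such as those around large bile ducts and by the gallbladder, stood at 1.18, 3.60, 1.04, 38.6 and 5.59 CPM in WT replicates 1 to 5 and at 0.312, 1.67, 9.59 and 0.472 CPM in MIDY replicates 1 to 4. MUC5AC, a second such mucin, named after its values were seen, was likewise highest in WT replicate 4 (8.38 CPM) and MIDY replicate 3 (3.95 CPM). WT replicate 4 was also the liver with the most KRT7, KRT19, SPP1 and ANXA4, and MIDY replicate 3 had the most KRT19, SPP1 and EPCAM of the MIDY livers. Among the MIDY livers, KRT7 was highest in replicate 2 and ANXA4 in replicate 4. EPCAM was highest in replicate 2 among the WT livers, and CFTR was lowest of all in MIDY replicate 3. Within their groups, SOX9, CFTR, PKHD1 and VIL1 were highest in neither WT replicate 4 nor MIDY replicate 3. With both libraries left out, the log2 fold change was -0.08 for KRT7, -0.43 for KRT19, -1.28 for SPP1, 0.66 for EPCAM and -1.26 for VIL1 (edgeR adjusted p = 0.147 for VIL1), and the members called lower numbered 0. That fit has 3 MIDY and 4 WT livers and called 17 genes higher and 7 lower in all. The part of MUC5B-bearing tissue in the differences between the full groups was not tested.

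**Figure D4:**
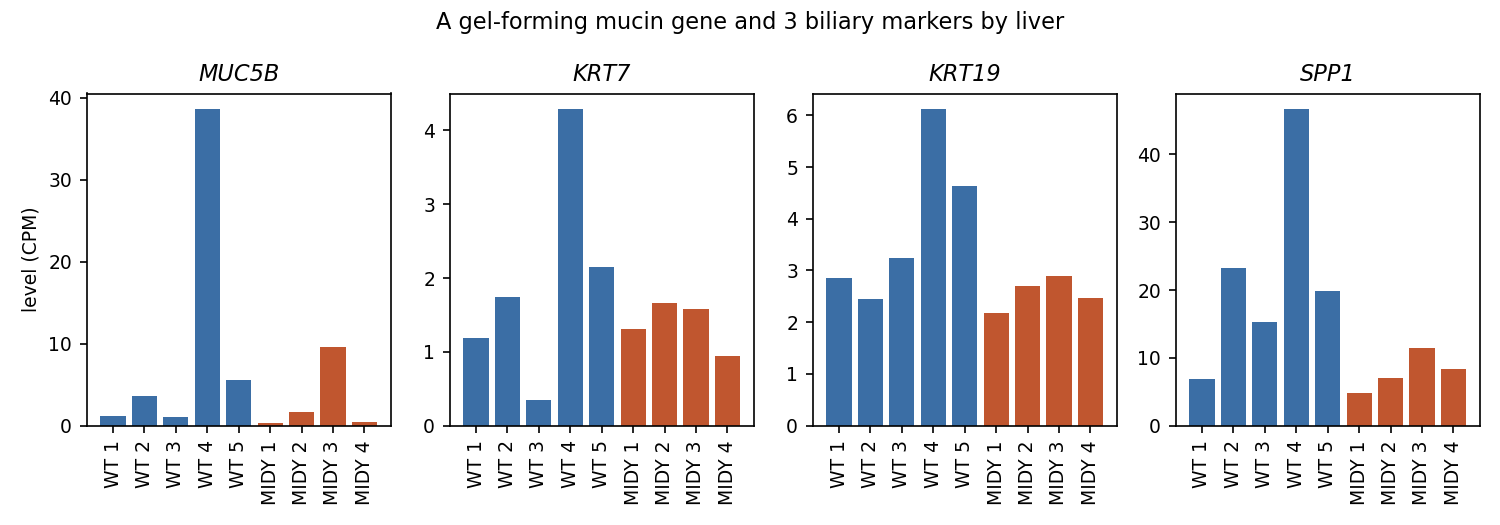
Level in CPM (y axis, from 0) of MUC5B and of KRT7, KRT19 and SPP1 in each WT and MIDY liver, 1 bar per liver. WT replicate 4 has the highest bar in all 4 panels, 38.6 CPM for MUC5B and 46.7 CPM for SPP1. EPCAM, SOX9, CFTR, PKHD1 and VIL1, which are not highest in that liver, are not shown.

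Most other genes of bile duct epithelium had fitted differences below 0, and none was called in the main fit. Of 18 tested, edgeR, DESeq2 and limma voom called 0. In edgeR 2 had an unadjusted p below 0.05, beside 16.1% of all tested genes. Fold changes lay below 0 for 15 and above 0 for 3, beside 50.7% of all tested genes below 0, with a median of -0.57. The summed level was 822 to 1052 CPM in WT and 853 to 1146 CPM in MIDY livers. Most of it came from CDH1, ONECUT1 and TM4SF4, with means of 433, 300 and 126 CPM in WT and 477, 308 and 113 CPM in MIDY livers. The sum therefore says little about the other genes of the list. ELF3, an epithelial transcription factor, was at 1.45 ± 0.48 CPM in WT livers and 0.62 ± 0.43 CPM in MIDY livers (± SD over 5 and 4 livers; adjusted p = 0.227 by edgeR). The lists were chosen with earlier results of these data known, and their genes share livers and portal tissue, so the counts of direction carry no test.

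Markers of portal fibroblasts and arterial muscle, which lie around the ducts, were measured beside them. Their summed level was 340 to 591 CPM in WT and 246 to 349 CPM in MIDY. Of 14 tested, 10 had an unadjusted p below 0.05 in edgeR (9 of them with a fold change below 0), beside 16.1% of all tested genes. The median was -0.88. DESeq2 called 5 lower and limma voom 2, beside 284 and 81 of all 14100 genes tested. By edgeR 1 was called lower and 0 higher, beside 0.355% and 0.816% of all tested genes. The called gene was MGP, a matrix protein that restrains calcification, which fell from 24.8 ± 1.65 to 12.9 ± 4.44 CPM (± SD over 5 and 4 livers; adjusted p = 0.0303 by edgeR). MGP kept its call among the fits without 1 library only without MIDY replicate 4 and without WT replicate 1 (adjusted p up to 0.0915 in the others), and its groups overlapped under total-count scaling, where it was not called (adjusted p = 0.0851). The part of portal tract tissue in the differences of the biliary genes was not tested. Hepatocyte markers had a median of 0.03, with 0 of 11 called by edgeR and limma voom, 1 called higher by DESeq2 and 1 at an unadjusted p below 0.05. CPS1, of the urea cycle, was at 2062 ± 341 CPM in WT livers and 3069 ± 479 CPM in MIDY livers (± SD over 5 and 4 livers; adjusted p = 0.0955 by edgeR), and CYP2E1 at 5642 ± 1697 and 4133 ± 679 CPM (± SD over 5 and 4 livers; adjusted p = 0.310 by edgeR). Of the markers of gut, gallbladder mucosa and pancreas, 3 of the 9 in the table could be tested, MUC5B, MUC5AC and the pancreatic CPA1 (1.38 ± 0.81 CPM in WT livers and 2.20 ± 1.58 CPM in MIDY livers; ± SD over 5 and 4 livers; adjusted p = 0.605 by edgeR). None of them was called by edgeR, DESeq2 or limma voom, with 0 at an unadjusted p below 0.05. Among the markers not tested, the intestinal FABP2 had 0 counts and the mucin gene MUC2 had the most, 125 over all libraries. MUC2 was at 1.36 ± 2.24 CPM in WT livers and 0.30 ± 0.31 CPM in MIDY livers (± SD over 5 and 4 livers).

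**Figure D5:**
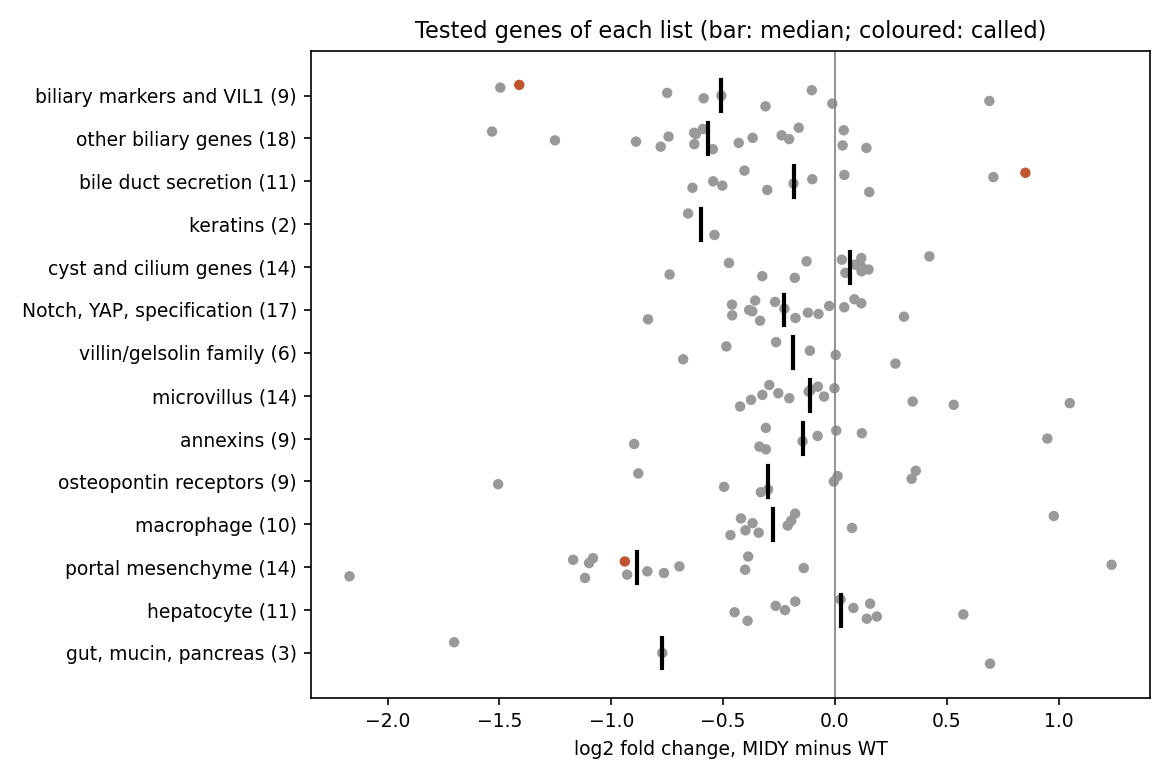
Log2 fold change (MIDY minus WT, x axis) of every tested gene in each list, with the number tested in brackets; the bar is the list's median and coloured points were called by edgeR. The medians are -0.51 for the biliary markers with VIL1, -0.57 for other biliary genes, -0.88 for portal mesenchyme and 0.03 for hepatocyte markers.

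The profile over the 9 livers was compared with that of 11503 other named genes with a mean of at least 1 CPM, by the root mean square difference of log2 CPM centred on each gene's mean. The VIL1 profile itself had a root mean square of 0.77. The genes nearest to VIL1 were SFRP1, a secreted Wnt antagonist (0.22), GIPC2, a PDZ-domain protein (0.31), BLNK, a B-cell adaptor (0.32), and COL1A1, a chain of type I collagen (0.32). SFRP1 was at 30.4 ± 6.27 CPM in WT livers and 13.4 ± 3.58 CPM in MIDY livers (± SD over 5 and 4 livers), GIPC2 at 9.23 ± 2.28 and 4.07 ± 0.46 CPM, BLNK at 2.16 ± 0.29 and 0.90 ± 0.21 CPM, and COL1A1 at 70.9 ± 20.5 and 34.2 ± 11.6 CPM. SFRP1, GIPC2 and BLNK were called lower (adjusted p = 0.0217, 0.0182 and 0.0410 by edgeR). All 4 genes were picked for lying near VIL1 over these same livers, so their lower levels in MIDY follow from that choice. Their calls carry no test and give VIL1 no support. SFRP1 lost its call without MIDY replicate 2 or 3 or WT replicate 2, 3, 4 or 5, GIPC2 without MIDY replicate 2 or 3, and BLNK without any single library other than MIDY replicate 4 or WT replicate 1 (adjusted p up to 0.0710, 0.0627 and 0.117). COL1A1 was not called (edgeR adjusted p = 0.0789), except without MIDY replicate 4 or WT replicate 1 (0.0253 and 0.0407) and by DESeq2 and limma voom. Of the biliary markers PKHD1 lay nearest to VIL1, with a difference of 0.38 and rank 23 among all tested genes, and SPP1 had rank 593. The genes nearest to KRT19 were RASGRF2 (0.15), SCLT1, CCDC85B (each 0.21) and LYPLAL1 (0.22), against 0.44 for the KRT19 profile itself. Mean levels of these 4 ran from 1.33 to 5.33 CPM in WT livers and from 0.81 to 4.07 CPM in MIDY livers, lowest for RASGRF2. None was called (edgeR adjusted p from 0.256 to 0.507).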

How the data were processed

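RNA of 9 pig livers was isolated with Trizol, depleted of ribosomal RNA and made into libraries with the Encore Complete kit, per the labels' protocols. STAR, HTSeq, DESeq2 and the build Sscrofa11.1 are named in the submitters' processing notes. Their versions, the annotation release and the strand setting were not found in those sources. Without the strand setting, reads of overlapping genes may not be told apart. The deposited table holds raw counts, whole reads for each gene symbol without normalization by the authors, in 1 column per library, with 0 columns left unused. All 29837 symbols were found in the RefSeq gene table of Sscrofa11.1, which gave the positions.

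The filter filterByExpr left 14100 genes, which hold 99.9% of all counts. Their counts were scaled by TMM and tested with the quasi-likelihood model of edgeR 4.0.16, robust setting, in R 4.3.3. Tests are two-sided, adjusted by Benjamini-Hochberg over all genes tested and called below 0.05. The standard error is the log2 fold change over the square root of F, and 95% intervals use the degrees of freedom of the fit. The common biological coefficient of variation was 21.5%. Genes in the text are the members, of each of the 13 other lists the called genes or else the 2 with the smallest p, genes that overlap a member, and the 4 profiles nearest to VIL1 and to KRT19 (log2 CPM, prior count 2). A gene that this rule names is not reported here. The alternatives were RLE factors, total counts, the 10 most abundant genes taken out, no filter, a stricter filter (4 or more libraries at 1 CPM or above), DESeq2 1.42.0, voom of limma 3.58.1 with sample weights, each library left out and WT replicates 1 and 2 left out. Leaving out WT replicate 4 and MIDY replicate 3 was chosen after seeing the data. The fits were tested on simulated data. The members and lists were chosen with earlier results of these data known.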

Additional observations from a re-analysis of the deposited data

Results flagged for a closer look

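In 84 groups of livers (42 named genes in WT and in MIDY), 6 held a library whose gap to the nearest other was large against the range of its group by Dixon's 95% limit, where chance flags about 1 in 20. SOX9 was at 3.11 CPM in WT replicate 3, against 5.99 to 6.47 CPM in the other WT livers. CFTR was at 17.6 CPM in WT replicate 2, against 10.3 to 12.2 CPM. MUC5B was at 38.6 CPM in WT replicate 4, against 1.04 to 5.59 CPM, and at 9.59 CPM in MIDY replicate 3, against 0.312 to 1.67 CPM in the other MIDY livers. KRT18 was at 30.1 CPM in MIDY replicate 1, against 22.9 to 23.4 CPM. SFRP1 was at 19.3 CPM in WT replicate 1, against 32.6 to 33.9 CPM. The number of libraries, 4 and 5 per group, limits what such gaps can show.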

How the results depend on the processing

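No paired analysis was possible because the replicate numbers of the 2 groups come from the order of the samples and pair no animals. Over 18 alternatives, 674 of 755 fold changes of the named genes kept their direction and their side of the threshold, 38 lost a call, 31 gained one and 12 changed sign; the causes were not tested. Of the sign changes, those of CFTR, SOX9 and USP37 were of values near 0, and that of MUC5B was of a log2 fold change of -1.70 that rested on WT replicate 4: CFTR was 0.0203 with total counts alone, 0.15 without WT replicates 1 and 2 together, 0.0622 with both WT replicate 4 and MIDY replicate 3 left out and from -0.21 to 0.15 in the fits without 1 library; SOX9 was 0.0347 without WT replicates 1 and 2 together and from -0.28 to 0.0216 without 1 library; and USP37 ran from -0.0309 to 0.12 and MUC5B from -3.65 to 0.0735 without 1 library. VIL1 ran from -1.63 to -1.29 without 1 library and was -1.26 with both WT replicate 4 and MIDY replicate 3 left out.

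Members called lower were 2 with DESeq2 and with limma voom, 0 with WT replicate 4 and MIDY replicate 3 left out and 0 to 2 without 1 library. Of all genes, the main fit called 115 higher and 50 lower. DESeq2 called 355 higher and 284 lower, and limma voom 153 higher and 81 lower. The counts were 114 and 34 with total counts alone, 139 and 69 with no filter and 123 and 56 with the stricter filter. RLE factors gave 114 and 50, and taking out the 10 most abundant genes gave 112 and 50. The fit without WT replicates 1 and 2 called 42 higher and 24 lower. That without WT replicate 4 and MIDY replicate 3 called 17 higher and 7 lower. The fits without 1 library called 34 to 152 higher and 4 to 107 lower. Of 468 list counts, 433 stayed the same. For portal mesenchyme lower, the count of 1 became 5 with DESeq2, 2 with limma voom, 0 with total counts alone, 0 without either pair of libraries and 0 to 2 without 1 library. For keratins lower, 0 became 1 with total counts, no filter, the stricter filter, DESeq2 and limma voom (0 to 1 without 1 library), and for microvillus higher, 0 became 1 with total counts, DESeq2 and limma voom (0 to 1 without 1 library). The secretion count of 1 higher became 0 without WT replicate 4 and MIDY replicate 3. With DESeq2, 0 became 1 for specification, microvillus and annexins lower and for macrophage and hepatocyte higher, and 2 for osteopontin receptors lower. Without 1 library, the ranges were 0 to 1 for other biliary genes and annexins lower and for macrophage higher, and 0 to 2 for osteopontin receptors lower. Depth limits KRT7 and EPCAM most, with as few as 5 and 12 counts in a library.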
